A study of Homo sapiens with 12 samples.

Results

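The 32 genes described here act in cholesterol synthesis and sterol transport. They were chosen by gene symbol, from what they encode, among the 48114 genes listed for each library, with earlier results of these data known. The 32 genes comprise 18 enzymes of synthesis, 4 regulators of the SREBP pathway, 5 genes of intracellular sterol handling, 4 genes of sterol uptake, efflux and the response to the nuclear receptor LXR, and LPIN1, which makes diacylglycerol for lipid synthesis. RNA was sequenced in 12 libraries from 2 established pancreatic ductal adenocarcinoma (PDAC) cell lines, with 3 biological replicates in each of 4 groups. PANC-1 cells, which the study uses as a basal-like line, were transfected for 48 h with a control siRNA (siCtrl), with 40 nM siRNA against QKI (siQKI) or with 40 nM siRNA against RBFOX2 (siRBFOX2). HPAF-II cells, used as a classical line, received siCtrl for 48 h. QKI and RBFOX2 are RNA-binding proteins that regulate alternative splicing, and the knockdowns address what PANC-1 cells lose with each of them. Both lines were grown in medium with fetal bovine serum, no gene was deleted, and cells without transfection or with an siRNA against an unrelated target were not analysed here.

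Cells build cholesterol from acetyl-CoA, first through mevalonate to isoprenoid units, then through squalene and lanosterol to the finished sterol ring. When sterols in the endoplasmic reticulum run low, the escort SCAP carries the transcription factor SREBP-2, the product of SREBF2, to the Golgi, where it is cleaved and released to switch on the genes of synthesis, and the INSIG proteins hold SCAP back when sterols are plentiful. Surplus sterol is sensed by LXR, whose targets ABCA1 and ABCG1 export cholesterol and whose target MYLIP removes lipoprotein receptors. Pancreatic cancer cells can obtain cholesterol both from this pathway and from lipoproteins in serum.

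The deposited values are normalized counts, made by dividing the counts of a library by its size factor. The size factors lay between 0.877 and 1.15 in PANC-1 libraries and between 0.810 and 1.09 in HPAF-II libraries, and all values of a library were whole multiples of a smallest unit. Between 82.1% and 84.8% of the values of 1 to 30 such units were divisible by 3, so a unit was not taken as 1 fragment, and sequencing depth is unknown. QKI had 24539 to 26150.4 normalized counts in siCtrl libraries and 4629.7 to 5453 in siQKI libraries, and RBFOX2 had 15355 to 15508 in siCtrl and 1712 to 2403 in siRBFOX2 libraries. RBFOX2 was also called lower in siQKI libraries, by a log2 fold change of -0.29 (limma, adjusted p = 0.0207). In the other direction, QKI had 26742 to 28973 normalized counts in siRBFOX2 libraries, above all siCtrl libraries. The epithelial keratins KRT8, KRT18 and KRT19 were high in both lines, though higher in HPAF-II libraries. The epithelial genes KRT7 and EPCAM were low in PANC-1 libraries, at 3.33 to 5.16 and 12.4 to 14.2 rescaled counts. They had 657 to 1154 and 327 to 487 in HPAF-II libraries. VIM, ZEB1 and CDH2, which mark a mesenchymal state, were high in PANC-1 libraries alone. CDH2 was at 0 in all 3 HPAF-II libraries, and VIM ranged from 0.283 to 15.2 rescaled counts there, against 5066 to 5499 in PANC-1 libraries. Among markers of other cell types, CD3E, HBB, PRSS1, INS and GCG were at 0 in all 9 PANC-1 libraries. The summed level of 4 blood cell markers was 144 to 167 rescaled counts in siCtrl, 116 to 118 in siQKI and 126 to 133 in siRBFOX2 libraries, nearly all of it CD68. The sum of 4 endothelial and fibroblast markers was 0.592 to 0.933 in siCtrl, 1.80 to 2.12 in siQKI and 0.862 to 2.22 in siRBFOX2 libraries, mostly PDGFRB, with PECAM1 at or near 0. The sum of 4 markers of the classical subtype, mostly AGR2, was 229 to 264, 363 to 390.3 and 267 to 296. The part of these shifts in the results below was not tested. In bulk RNA, fewer cells that express a gene and less RNA per cell cannot be told apart.

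Depletion of QKI left most of the 32 genes within a small range and moved a few of them clearly. TM7SF2, a sterol reductase of the ring-modifying steps, rose 2.48-fold, INSIG2 rose 1.51-fold and ABCA1 rose 1.44-fold, whereas INSIG1 fell to 0.556 of its siCtrl level. In all, 12 of the 32 genes (37.5%) passed an adjusted p of 0.05 in limma, 9 higher and 3 lower, and the same threshold called 33.0% of the 22544 genes tested, 14.9% higher and 18.1% lower. A change of at least 1.5-fold beside the call was seen for 3 of the 32 genes, TM7SF2, INSIG1 and INSIG2, against 9.03% of all genes tested. The siQKI and siCtrl libraries did not overlap for 16 of the 32 genes (50.0%), against 44.7% of all genes tested. The median log2 fold change was 0.02 over the 32 genes and 0.03 over all genes tested, so that the middle of the list lay close to that of all genes. Of the 20 genes not called, 18 had a 95% interval within a 1.5-fold change, and the other two were NPC1L1 and ABCG1. Of the 12 calls, 7 were kept in each of 18 alternative settings (TM7SF2, INSIG1, INSIG2, ABCA1, MSMO1, LSS and TMEM97). The number called higher was 5 without siCtrl replicate 3 or without siQKI replicate 2, the number called lower was 5 without siRBFOX2 replicate 1 or 2, and rescaling by the upper quartile gave 12 higher and 2 lower.

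Depletion of RBFOX2 gave calls for 14 of the 32 genes (43.75%), 9 higher and 5 lower, where 26.5% of all genes tested were called, 12.0% higher and 14.5% lower. The 2 genes called with at least 1.5-fold change were TM7SF2, which rose 2.33-fold, and ABCA1, which rose 1.66-fold, against 5.71% of all genes tested. The libraries of siRBFOX2 and siCtrl did not overlap for 16 of the 32 genes (50.0%), against 37.9% of all genes tested, and the median log2 fold change was 0.00 over the 32 genes and 0.01 over all genes tested. All calls but those of ACAT2 and HSD17B7 were kept in each of the 18 alternatives. The 3 siCtrl libraries serve as reference for both siRNAs, which makes agreement between the knockdowns no independent evidence, and each gene is given below with both values side by side. MVD, LSS, TM7SF2, MSMO1, INSIG1, INSIG2, TMEM97 and ABCA1, 8 of the 32 genes, were called in the same direction with each siRNA. The same held for 3812 of the 22544 genes tested. HMGCS1 was called in opposite directions, though its call with siQKI was lost in 11 of the 18 alternatives. With neither siRNA, 15 genes were called. The shares of all genes tested are not given for these counts, so they are a description. As a share of all counts, the 18 enzymes held 0.112% to 0.116% of a siCtrl library, 0.123% to 0.126% of a siQKI library and 0.123% to 0.124% of a siRBFOX2 library, so that the knockdown libraries lay above the controls. All 32 genes together held 0.167% to 0.174%, 0.173% to 0.178% and 0.178% to 0.179%, and here the siQKI libraries overlapped the controls. Such shares depend on the library total. Scaled to equal totals, the median log2 fold change of all genes was 0.09 with siQKI and 0.07 with siRBFOX2. On the deposited values the median over the 18 enzymes was 0.06 and 0.00. How much of the higher enzyme share comes from the scaling was not tested.

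**Figure D1:**
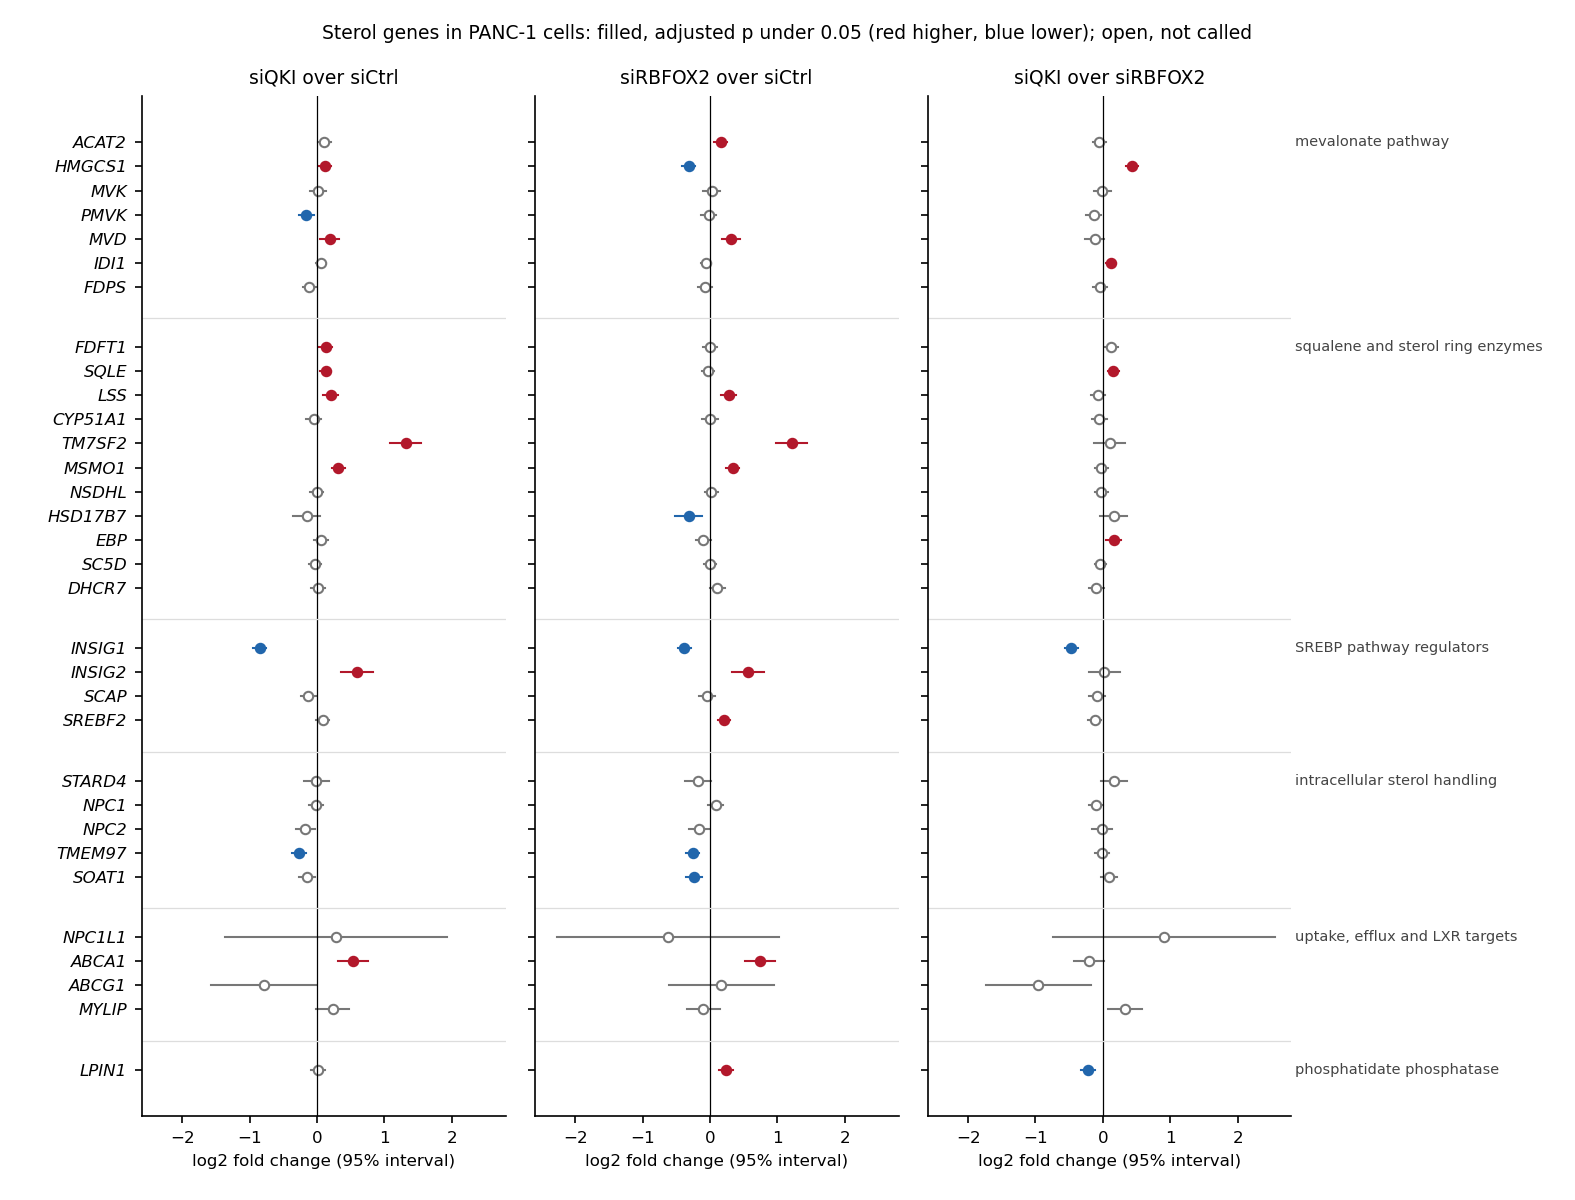
Log2 fold change (x axis, with its 95% interval) of each of the 32 genes (y axis, grouped by role) for siQKI over siCtrl, siRBFOX2 over siCtrl and siQKI over siRBFOX2 in PANC-1 cells, 3 libraries per group, with filled points for an adjusted p under 0.05 in limma (red higher, blue lower) and open points for the others. TM7SF2 lies farthest to the right in both knockdowns at 1.31 and 1.22, INSIG1 is the lowest called gene at -0.85 and -0.38, and the widest intervals belong to NPC1L1 and ABCG1, the genes with the lowest counts.

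The 7 measured enzymes of the mevalonate pathway, which turn acetyl-CoA into farnesyl diphosphate, moved little. With siQKI, HMGCS1 and MVD were called higher and PMVK lower, and with siRBFOX2, ACAT2 and MVD were called higher and HMGCS1 lower, 3 of 7 each time, where 33.0% and 26.5% of all genes tested were called. HMGCS1, the cytosolic HMG-CoA synthase at the entry of the pathway (chromosome 5, 43287470 to 43313440 on hg38), had 12178, 11872 and 12379 normalized counts in the siCtrl libraries. It had 13410.3, 13131 and 13082 in the siQKI libraries and 10045, 9469 and 9822 in the siRBFOX2 libraries. The siQKI libraries all lay above and the siRBFOX2 libraries all below the siCtrl libraries, and the 3 groups did not overlap. The log2 fold change was 0.12 (SE 0.04, adjusted p = 0.0465 in limma) with siQKI and -0.31 (SE 0.04, adjusted p = 9.39e-05) with siRBFOX2. The rise with siQKI was lost in 11 of the 18 alternatives, where its adjusted p-values ran from 0.00381 to 0.147, whereas the fall with siRBFOX2 was kept in all of them.

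MVD, which decarboxylates mevalonate diphosphate, had 7544 ± 710.4 normalized counts in siCtrl, 8597 ± 362 in siQKI and 9361 ± 426 in siRBFOX2 libraries (SD, n = 3 each). Its siRBFOX2 libraries lay above all siCtrl libraries (log2 fold change 0.31, SE 0.07, adjusted p = 0.00219 in limma), while its siQKI libraries overlapped them (0.19, SE 0.07, adjusted p = 0.0348) and that call was lost in 5 of the 18 alternatives. PMVK, the phosphomevalonate kinase, fell by 0.16 on the log2 scale with siQKI (SE 0.05, adjusted p = 0.0379 in limma), a call lost in 10 of the 18 alternatives, and stood at -0.02 with siRBFOX2. ACAT2, the cytosolic thiolase that makes acetoacetyl-CoA, rose by 0.16 with siRBFOX2 (SE 0.04, adjusted p = 0.0152 in limma), and its value with siQKI was 0.11 (adjusted p = 0.0845). ACAT2 overlaps TCP1 and SOD2, whose counts are 647% and 183% of its own, and the handling of strand is not stated, so that its values are uncertain, as are those of FDPS, which overlaps SLC50A1 at 34.2% of its count. MVK, IDI1 and FDPS, which encode mevalonate kinase, isopentenyl diphosphate isomerase and farnesyl diphosphate synthase, were called with neither siRNA, and their log2 fold changes lay between -0.11 and 0.06.

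Of the 11 measured enzymes from squalene to cholesterol, 5 were called with siQKI, all higher, and 4 with siRBFOX2, 3 higher and 1 lower. Among all genes tested, 33.0% were called with siQKI, 14.9% higher, and 26.5% with siRBFOX2, 12.0% higher. TM7SF2 encodes a C14 sterol reductase, which removes a double bond left when CYP51A1 takes off the 14-methyl group (chromosome 11, 65111872 to 65116384 on hg38). Its siCtrl libraries had 3569.8, 3898 and 3010.2 normalized counts. Its siQKI libraries had 8884, 7935 and 9151, and its siRBFOX2 libraries 8802, 8885 and 6708. Every knockdown library held more than any control library, and the knockdowns overlapped each other. The log2 fold change was 1.31 with siQKI (SE 0.11, adjusted p = 2.50e-07 in limma) and 1.22 with siRBFOX2 (SE 0.11, adjusted p = 1.16e-06), and over the alternatives the values ran from 1.21 to 1.40 and from 1.11 to 1.35. The difference between the knockdowns was 0.10 with a 95% interval from -0.13 to 0.33.

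LBR, the other C14 sterol reductase, was singled out after its values were seen because it catalyses the same step. It had 20279 ± 539 normalized counts in siCtrl, 20321 ± 345 in siQKI and 19409 ± 165 in siRBFOX2 libraries (SD, n = 3 each), with log2 fold changes of 0.00 and -0.06 that did not pass the threshold (adjusted p = 0.964 and 0.280 in limma). Per kilobase of exon, LBR exceeded TM7SF2 by a ratio of 3.80 ± 0.481 in siCtrl, 1.53 ± 0.144 in siQKI and 1.57 ± 0.272 in siRBFOX2 libraries (SD, n = 3 each). The ratios of both knockdowns lay below all siCtrl ratios, although by this measure LBR remained the higher of the pair in every PANC-1 library. The lengths merge the exons of all annotated transcripts, 5.257 kb for LBR and 3.408 kb for TM7SF2. Which of the pair is higher depends on these lengths, and the transcripts used in these cells were not examined.

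MSMO1, the methylsterol monooxygenase that acts on the C4 methyl groups (chromosome 4, 165327669 to 165343164 on hg38), had 26519, 28958 and 28269 normalized counts in siCtrl libraries. The siQKI libraries had 36038, 34235 and 34023, and the siRBFOX2 libraries 35908, 33943 and 36213. All 6 knockdown libraries lay above the siCtrl libraries, with log2 fold changes of 0.32 (SE 0.04, adjusted p = 5.32e-05 in limma) and 0.34 (SE 0.04, adjusted p = 4.69e-05). LSS, which folds oxidosqualene into lanosterol, rose from 20884 ± 685 normalized counts in siCtrl to 24064 ± 1417 in siQKI and 25336 ± 1102 in siRBFOX2 libraries (SD, n = 3 each), again without overlap between knockdown and control. Its log2 fold changes were 0.20 (SE 0.05, adjusted p = 0.00514 in limma) and 0.28 (SE 0.05, adjusted p = 7.01e-04).

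FDFT1 and SQLE, the squalene synthase and the squalene epoxidase that precede LSS, were called with siQKI and not with siRBFOX2. FDFT1 rose by 0.13 on the log2 scale with siQKI (adjusted p = 0.0451 in limma), a call lost in 9 of the 18 alternatives, and its value with siRBFOX2 was 0.00. SQLE had 21015 ± 174 normalized counts in siCtrl and 22983 ± 558 in siQKI libraries (SD, n = 3 each; log2 fold change 0.13, SE 0.04, adjusted p = 0.0210 in limma), a call lost in 4 of the 18 alternatives. HSD17B7, the sterol reductase of the C4 demethylation complex, fell with siRBFOX2 by 0.31 (SE 0.10, adjusted p = 0.0228 in limma), and that call was lost in 5 of the 18 alternatives. HSD17B7, CYP51A1 and FDPS also have pseudogene copies, and how reads were shared with them is not given in the sources used here. CYP51A1, NSDHL, EBP, SC5D and DHCR7, which act on the methyl groups and double bonds of the ring, were called with neither siRNA. Their log2 fold changes ran from -0.05 to 0.06 with siQKI and from -0.10 to 0.11 with siRBFOX2, and every 95% interval stayed within a 1.5-fold change.

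Among the 4 regulators of the SREBP pathway, the INSIG genes moved in opposite directions with each siRNA. INSIG1, the INSIG gene that is itself switched on by SREBP (chromosome 7, 155297838 to 155310235 on hg38), had 40033, 42404 and 39102 normalized counts in siCtrl libraries. It had 22976, 23126 and 21485 in siQKI libraries and 32021, 29772 and 31509 in siRBFOX2 libraries. The 3 groups did not overlap, with siQKI lowest and siRBFOX2 in between. The log2 fold change was -0.85 with siQKI (SE 0.05, adjusted p = 3.91e-09 in limma) and -0.38 with siRBFOX2 (SE 0.05, adjusted p = 2.15e-05).

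INSIG2, which is not induced by SREBP (chromosome 2, 118088454 to 118110997 on hg38), had 2483, 2732 and 2468 normalized counts in siCtrl libraries. The siQKI libraries had 3432, 3988 and 4217, and the siRBFOX2 libraries 3555, 3320.0 and 4653. All 6 knockdown libraries lay above the siCtrl libraries and the knockdowns overlapped each other. The log2 fold changes were 0.59 (SE 0.11, adjusted p = 6.37e-04 in limma) and 0.57 (SE 0.11, adjusted p = 0.00130). Per kilobase of exon, the ratio of INSIG1 to INSIG2 within a library was 17.1 ± 0.327 in siCtrl, 6.34 ± 0.867 in siQKI and 8.93 ± 1.38 in siRBFOX2 libraries (SD, n = 3 each), so INSIG1 stayed the higher of the pair while the ratio shrank.

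SREBF2 had 23584, 26170.4 and 24574 normalized counts in siCtrl libraries and 29118, 28888 and 27890.0 in siRBFOX2 libraries, which did not overlap (chromosome 22, 41833105 to 41907306 on hg38). Its log2 fold change was 0.21 with siRBFOX2 (SE 0.04, adjusted p = 0.00265 in limma) and 0.09 with siQKI (SE 0.04, adjusted p = 0.165), and the difference between the knockdowns, -0.12, did not pass the threshold (adjusted p = 0.0639). SCAP was called with neither siRNA, at -0.13 with siQKI (adjusted p = 0.0889 in limma) and -0.05 with siRBFOX2 (adjusted p = 0.607).

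**Figure D2:**
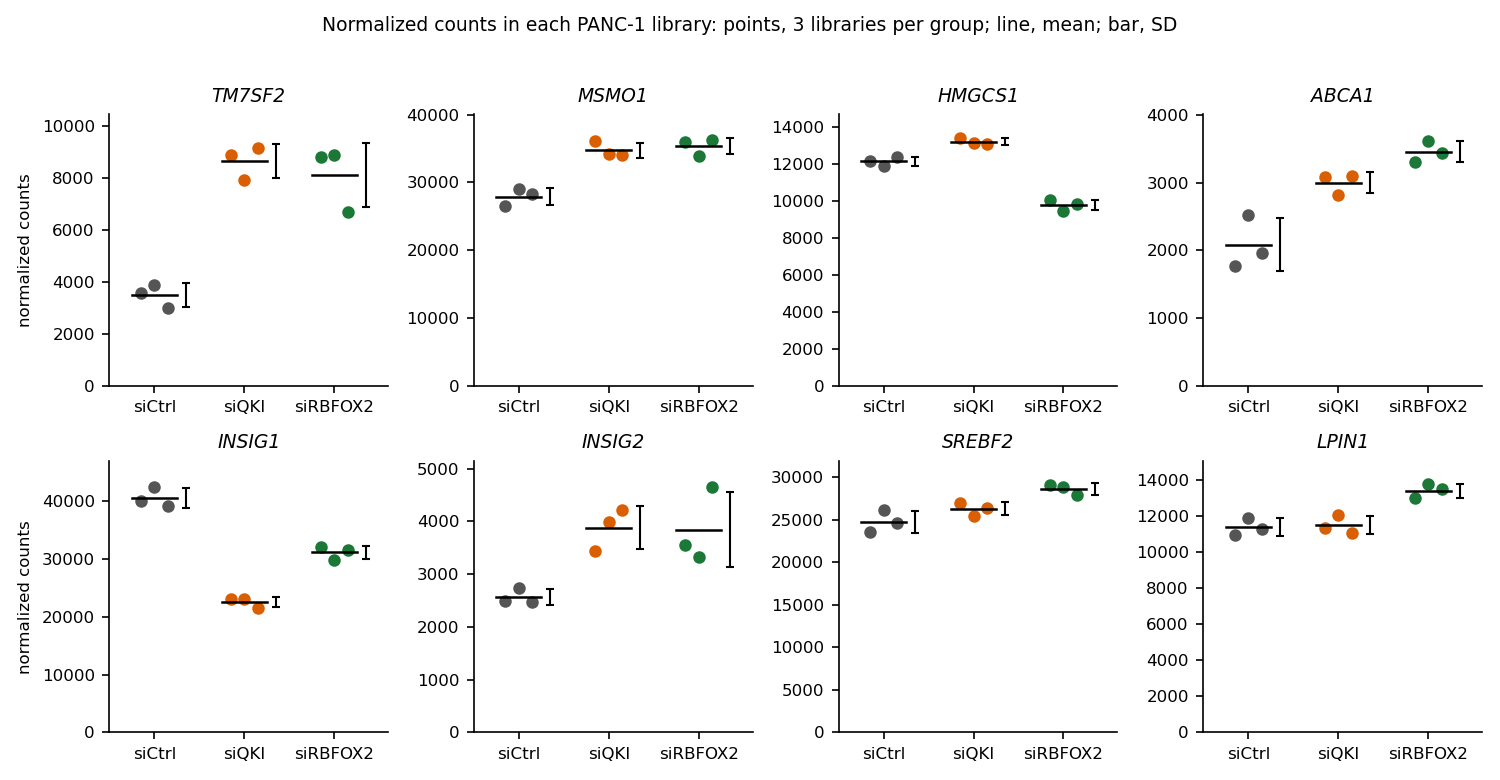
Normalized counts (y axis, from 0) of 8 genes in each PANC-1 library, grouped on the x axis as siCtrl, siQKI and siRBFOX2, with the mean as a line and the SD over 3 libraries as a bar. TM7SF2, MSMO1, INSIG2 and ABCA1 stand above the controls in all 6 knockdown libraries and INSIG1 below them, while the siQKI and siRBFOX2 libraries of HMGCS1 lie on opposite sides of the controls.

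**Figure D3:**
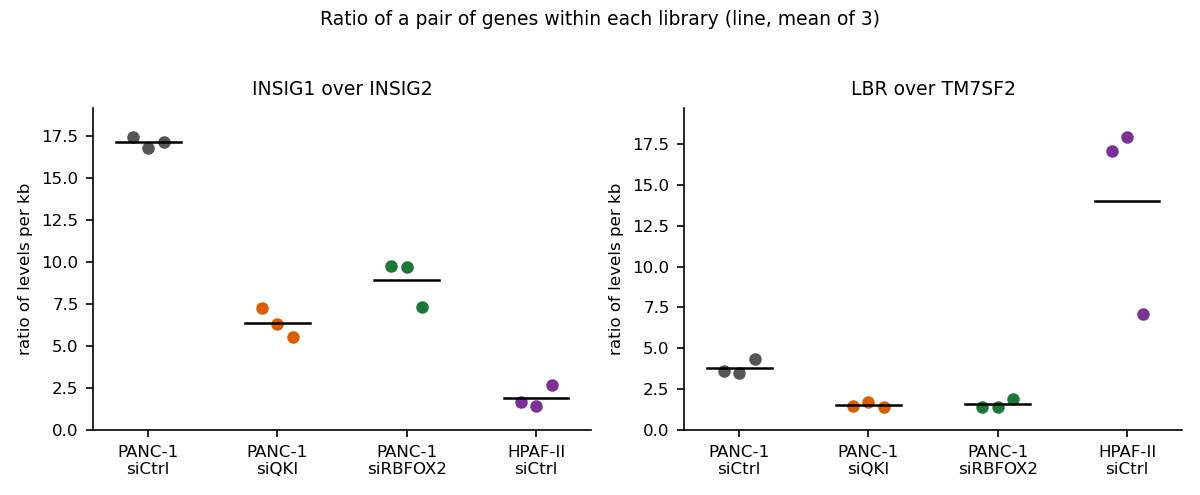
Ratio of the levels per kilobase of exon (y axis, from 0) of INSIG1 to INSIG2 and of LBR to TM7SF2 within each library of the 4 groups (x axis), with the mean of 3 libraries as a line. In PANC-1 cells both ratios are lower in every knockdown library than in any siCtrl library, and in HPAF-II cells the first ratio is 1.44 to 2.67 and the second 7.08 to 17.9.

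Of the 5 genes that move or store sterol inside the cell, TMEM97 was called lower with both siRNAs and SOAT1 with siRBFOX2. TMEM97, the sigma-2 receptor, which binds sterols and NPC1, had 38822, 37036 and 36131 normalized counts in siCtrl libraries. It had 31782, 32101 and 29192 in siQKI and 30186, 31427 and 32121 in siRBFOX2 libraries, all below the controls. The log2 fold changes were -0.27 (SE 0.05, adjusted p = 3.28e-04 in limma) and -0.26 (SE 0.05, adjusted p = 7.05e-04), and IFT20, which overlaps TMEM97, holds 16.2% of its count. SOAT1, which esterifies cholesterol for storage in lipid droplets, fell by 0.24 with siRBFOX2 (SE 0.06, adjusted p = 0.00614 in limma) and had a value of -0.15 with siQKI that did not pass (adjusted p = 0.0630). Both siRNAs left the SOAT1 libraries below all controls, and the difference between the knockdowns was 0.09 with a 95% interval from -0.03 to 0.21. NPC1 and NPC2, which release cholesterol from lysosomes, and STARD4, which carries it between membranes, were called with neither siRNA, with log2 fold changes from -0.18 to 0.09. NPC1 overlaps RMC1, whose counts are 108% of its own.

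ABCA1, the exporter that loads cholesterol on apolipoproteins (chromosome 9, 104764558 to 104928237 on hg38), was the called member of the 4 uptake, efflux and LXR genes. Its siCtrl libraries had 1774, 2525 and 1962 normalized counts. Its siQKI libraries had 3083, 2826 and 3094, and its siRBFOX2 libraries 3311, 3621 and 3439. Both knockdowns lay above all controls, and siCtrl replicate 2 was the highest of the controls. The log2 fold changes were 0.54 (SE 0.11, adjusted p = 9.68e-04 in limma) and 0.74 (SE 0.11, adjusted p = 1.0e-04), and without siCtrl replicate 2 they were 0.68 and 0.89. The difference between the knockdowns was -0.20 with a 95% interval from -0.43 to 0.02. NIPSNAP3B, which overlaps ABCA1, holds 16.2% of its count. MYLIP and ABCG1, the other LXR targets of the list, did not pass with siQKI, at 0.23 (SE 0.12, adjusted p = 0.147 in limma) and -0.79 (SE 0.36, adjusted p = 0.116), nor with siRBFOX2, at -0.10 and 0.17. NPC1L1, a sterol uptake protein of intestine and liver, had 5.56 to 64.1 normalized counts over the 9 libraries, and at this level the 95% interval of its change with siQKI spanned -1.37 to 1.93. LPIN1, a phosphatidate phosphatase and SREBP target, rose with siRBFOX2 from 11389 ± 504 to 13429 ± 393 normalized counts (SD, n = 3 each; log2 fold change 0.24, SE 0.05, adjusted p = 0.00236 in limma) and stood at 0.01 with siQKI (adjusted p = 0.868).

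The direct contrast of siQKI with siRBFOX2, which uses no control library, tests whether a gene differed between the knockdowns. It called 6 of the 32 genes (18.75%), where 21.5% of all genes tested were called, 4 of them higher with siQKI, against 9.93% of all genes tested, and 2 lower, against 11.6%. HMGCS1 was higher with siQKI than with siRBFOX2 by 0.43 on the log2 scale (SE 0.04, adjusted p = 5.34e-06 in limma). INSIG1 was lower with siQKI, by a log2 difference of -0.47 (SE 0.05, adjusted p = 3.95e-06), and LPIN1 was also lower, at -0.22 (SE 0.05, adjusted p = 0.00438). Smaller differences were called for EBP (0.16, adjusted p = 0.0365 in limma), SQLE (0.16, adjusted p = 0.00974) and IDI1 (0.12, adjusted p = 0.0302), all higher with siQKI. The calls of HMGCS1, INSIG1 and LPIN1 were kept in all 18 alternatives, and the number called higher was 2 without any of siQKI replicates 1, 2 or 3 in turn. None of the called differences reached 1.5-fold, against 4.33% of all genes tested. The libraries of the knockdowns did not overlap for 14 of the 32 genes (43.75%), against 35.2% of all genes tested. Of the 8 genes called in 1 knockdown alone, SQLE and LPIN1 also differed in this direct contrast, whereas ACAT2, PMVK, FDFT1, HSD17B7, SREBF2 and SOAT1 did not pass it. For 24 of the 26 genes that were not called, the 95% interval lay within a 1.5-fold difference, and NPC1L1 and ABCG1 had wider intervals.

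Other genes of the pathway were taken from a list of 60, of which 56 were tested. The list was chosen with earlier results known, so its counts are a description. With siQKI, 13 were called higher and 13 lower (46.4%, against 33.0% of all genes tested), and rescaling by the upper quartile gave 17 and 11. With siRBFOX2, 12 were called higher and 10 lower (39.3%, against 26.5% of all genes tested), and rescaling to the same total gave 13 and 7. CYP27A1, the mitochondrial sterol 27-hydroxylase that makes an oxysterol, rose by 0.84 on the log2 scale with siQKI (SE 0.22, adjusted p = 0.00704 in limma) and by 0.86 with siRBFOX2 (SE 0.22, adjusted p = 0.00817), from 439 ± 151 normalized counts in siCtrl libraries (SD, n = 3). Its siQKI libraries overlapped the controls and its siRBFOX2 libraries did not. SCARB1, the receptor that takes cholesteryl ester from high-density lipoprotein, had 33494, 32535 and 30826 normalized counts in siCtrl, 54789, 49826 and 51372 in siQKI and 36265, 37952 and 30412 in siRBFOX2 libraries. It rose with siQKI (log2 fold change 0.69, SE 0.07, adjusted p = 1.52e-06 in limma), and the direct contrast with siRBFOX2 was 0.58 (adjusted p = 1.73e-05). VLDLR, a lipoprotein receptor, rose by 0.58 and 0.40 (adjusted p = 0.00293 and 0.0348 in limma), and its overlapping antisense gene VLDLR-AS1 holds 14.2% of its count.

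The LXR genes differed from each other. NR1H2, which encodes LXR-beta, fell from 10660.2 ± 417 to 7387 ± 203 normalized counts with siQKI (SD, n = 3 each; log2 fold change -0.53, SE 0.05, adjusted p = 8.25e-07 in limma). The direct contrast with siRBFOX2 was -0.42 (adjusted p = 1.91e-05). NR1H3, which encodes LXR-alpha, rose by 0.45 with siQKI and by 0.43 with siRBFOX2 (SE 0.12 each, adjusted p = 0.0109 and 0.0161 in limma), but it overlaps ACP2, whose counts are 1105% of its own. OSBPL3, an oxysterol-binding protein, fell by 0.51 and 0.32 with siQKI and siRBFOX2 (adjusted p = 4.02e-06 and 4.83e-04 in limma). CAV1, the main protein of caveolae, rose with siRBFOX2 by 0.63 (SE 0.04, adjusted p = 9.82e-08), and STARD5, a soluble sterol carrier, fell by 0.48 (adjusted p = 0.0196). GRAMD1C, which moves sterol from the plasma membrane, rose by 0.55 with siQKI (adjusted p = 0.0316 in limma), and an overlapping gene without a symbol holds 97.3% of its count. In the direct contrast, 5 were called higher and 10 lower with siQKI (26.8%, against 21.5% of all genes tested), and rescaling by the upper quartile gave 7 and 9. Those with the largest differences besides SCARB1 and NR1H2 were NCEH1, which hydrolyses cholesteryl ester, at 0.38, MBTPS2, a protease that cleaves SREBP, at 0.37, and ERLIN2 and RNF139, which act in protein degradation at the endoplasmic reticulum, at -0.35 each. MBTPS2 and RNF139 overlap YY2 and TATDN1.

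To describe what lies upstream of the start sites, 250 bases were read from RefSeq (GRCh38.p14) for 28 of the 32 genes. On either strand, the letters TCACNCCAC (sterol regulatory element), CCAAT (NF-Y box) and GGGCGG (Sp1 box) were searched, none of which contains another. CCAAT was present in 20 of the 28 upstream regions (71.4%), against 32.0% of all 35116 RefSeq regions of this length and 34.2% of 13138 regions of tested genes. GGGCGG was present in 26 (92.9%), against 42.6% and 63.8%, and TCACNCCAC in 1 (3.57%), that of SREBF2, against 0.883% and 0.837%. Of the 14 genes with a sequence that were called with neither siRNA, 10 had a CCAAT, as did 10 of the 14 called with at least one of them. A match is a description and not a bound site. Only these exact letters were searched, so a region without a match may still hold a variant of the element. Shown are the regions of TM7SF2, INSIG1, INSIG2 and ABCA1, which had the largest called changes, of HMGCS1, which was called in opposite directions, of SREBF2, which held the sterol element, and of MSMO1, whose change followed in size with siQKI, with the sterol element and each CCAAT in capitals, as is its complement ATTGG, each written from 5′ to 3′ along its gene.
TM7SF2, chr11:65111622-65111871, plus strand: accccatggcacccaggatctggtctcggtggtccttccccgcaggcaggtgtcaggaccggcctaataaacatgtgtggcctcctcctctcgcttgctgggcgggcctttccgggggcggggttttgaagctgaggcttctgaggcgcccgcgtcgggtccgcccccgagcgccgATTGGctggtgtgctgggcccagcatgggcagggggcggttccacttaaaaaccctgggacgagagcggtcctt
INSIG1, chr7:155297628-155297877, plus strand: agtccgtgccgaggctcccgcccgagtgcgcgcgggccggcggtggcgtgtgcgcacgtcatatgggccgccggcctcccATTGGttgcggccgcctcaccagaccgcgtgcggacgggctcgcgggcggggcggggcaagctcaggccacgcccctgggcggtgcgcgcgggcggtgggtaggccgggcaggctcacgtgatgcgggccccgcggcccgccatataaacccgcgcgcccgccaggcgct
INSIG2, chr2:118088221-118088470, plus strand: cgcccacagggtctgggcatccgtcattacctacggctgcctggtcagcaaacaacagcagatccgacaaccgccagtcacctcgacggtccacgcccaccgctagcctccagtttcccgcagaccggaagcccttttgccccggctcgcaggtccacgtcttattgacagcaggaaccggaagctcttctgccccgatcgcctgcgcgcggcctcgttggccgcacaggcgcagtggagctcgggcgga
ABCA1, chr9:104928156-104928405, minus strand: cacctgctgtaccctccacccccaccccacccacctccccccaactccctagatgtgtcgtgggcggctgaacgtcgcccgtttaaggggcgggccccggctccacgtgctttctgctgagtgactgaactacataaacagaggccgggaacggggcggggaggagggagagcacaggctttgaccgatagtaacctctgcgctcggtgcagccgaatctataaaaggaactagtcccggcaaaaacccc
HMGCS1, chr5:43313413-43313662, minus strand: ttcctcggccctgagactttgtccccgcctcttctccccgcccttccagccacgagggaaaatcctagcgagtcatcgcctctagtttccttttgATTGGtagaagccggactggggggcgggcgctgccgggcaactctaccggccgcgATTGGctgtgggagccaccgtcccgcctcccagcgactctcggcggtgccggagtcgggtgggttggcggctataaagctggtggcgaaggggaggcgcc
SREBF2, chr22:41832855-41833104, plus strand: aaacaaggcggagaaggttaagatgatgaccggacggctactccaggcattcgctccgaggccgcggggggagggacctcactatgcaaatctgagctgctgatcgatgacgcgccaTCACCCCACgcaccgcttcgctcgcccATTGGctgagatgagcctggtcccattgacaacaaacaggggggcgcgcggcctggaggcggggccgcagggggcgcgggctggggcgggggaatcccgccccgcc
MSMO1, chr4:165327419-165327668, plus strand: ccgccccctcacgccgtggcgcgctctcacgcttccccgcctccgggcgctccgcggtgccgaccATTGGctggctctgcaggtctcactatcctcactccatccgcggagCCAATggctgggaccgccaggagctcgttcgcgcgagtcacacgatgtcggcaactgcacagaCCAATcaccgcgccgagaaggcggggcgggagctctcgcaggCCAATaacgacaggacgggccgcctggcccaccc
MSMO1 carried 4 CCAAT, HMGCS1 carried 2, TM7SF2, INSIG1 and SREBF2 carried 1 each, and INSIG2 and ABCA1 carried 0.

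The lines were compared in control-transfected cells to ask where the sterol genes stood in a classical and in a basal-like line. Each subtype is represented by a single cell line, so subtype and line cannot be told apart. The 3 libraries of a line replicate that line and not a subtype. The authors normalized the tables of both lines separately, so the values of every library were brought to a sum of 1000000 (rescaled counts), and no test was run. In these units 9 of the 32 genes were at least 2-fold higher and 3 at least 2-fold lower in HPAF-II cells, together 37.5%, where 52.4% of 24673 genes compared differed by that much, 27.2% higher and 25.2% lower. PANC-1 and HPAF-II libraries were fully separated for 25 of the 32 genes (78.1%), against 63.7% of all genes compared. Of these 25 genes, 17 were higher and 8 lower in HPAF-II cells. This split was counted on rescaled values alone, and the share of all genes in each direction is not given. The median log2 ratio was 0.17 over the 32 genes and 0.08 over all genes compared. Together the 32 genes held 0.235% to 0.262% of an HPAF-II library and 0.167% to 0.174% of a PANC-1 siCtrl library, and the 18 enzymes 0.177% to 0.199% and 0.112% to 0.116%. With the deposited values, without rescaling, 5 genes were at least 2-fold higher and 6 lower.

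HMGCS1 had 182, 197 and 175 rescaled counts in HPAF-II and 35.9, 34.1 and 35.9 in PANC-1 libraries, a log2 ratio of 2.39. FDFT1, the first enzyme committed to sterols, had 263, 248 and 244 against 51.0, 53.3 and 51.6, a log2 ratio of 2.27. Both genes were far apart between the lines, with no overlap. IDI1, FDPS and CYP51A1 were also at least 2-fold higher, with log2 ratios of 1.04, 1.12 and 1.04. Those of IDI1 and CYP51A1 lay close to the 2-fold line. Across all members, 9 were at least 2-fold higher, but 7 after upper quartile rescaling or without HPAF-II replicate 2. With the deposited values 5 were. Which members fell below the line is not given. ACAT2, MVK, SQLE, MSMO1, EBP and NSDHL were higher in every HPAF-II library by less than 2-fold. SC5D was the enzyme with lower values in every HPAF-II library, at a log2 ratio of -0.50. HPAF-II replicate 3 stood apart for MVD (15.5, 17.1 and 40.0 rescaled counts), TM7SF2 (8.04, 8.05 and 17.3) and DHCR7 (117, 122 and 195), and for these genes the lines overlapped. It was also the highest for PMVK (50.1, 59.4 and 85.3), where the lines overlapped too. The same held for MVK (22.5, 21.7 and 30.8) and SCAP (15.4, 14.9 and 23.6), without overlap of the lines. For INSIG2 it was the lowest. TM7SF2, the gene that rose most with either siRNA, had 11.1 ± 5.37 rescaled counts in HPAF-II and 10.1 ± 1.28 in PANC-1 libraries (SD, n = 3 each).

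**Figure D4:**
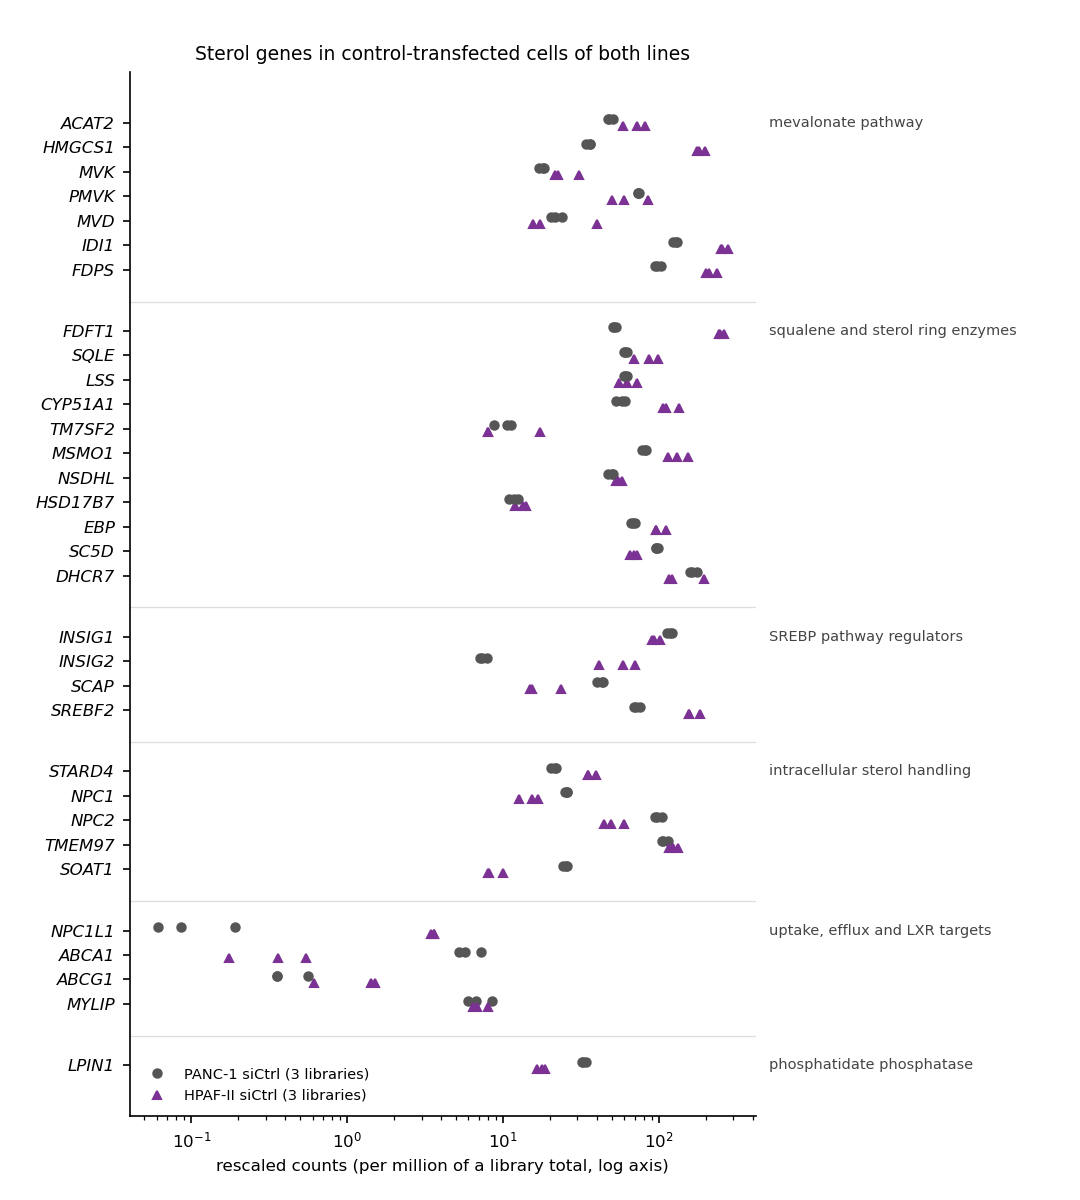
Rescaled counts (x axis, log scale) of each of the 32 genes (y axis, grouped by role) in the 3 PANC-1 siCtrl libraries (circles) and the 3 HPAF-II siCtrl libraries (triangles). HMGCS1, FDFT1, INSIG2 and NPC1L1 lie far to the right in HPAF-II cells, and ABCA1 and SOAT1 far to the left. HPAF-II replicate 3 is separated from the other libraries of its line for MVD, TM7SF2 and DHCR7, among others.

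INSIG2 had 59.0, 69.9 and 41.1 rescaled counts in HPAF-II and 7.33, 7.85 and 7.15 in PANC-1 libraries, a 7.61-fold higher mean. INSIG1 was slightly lower in every HPAF-II library, at a log2 ratio of -0.31. The ratio of INSIG1 to INSIG2 per kilobase of exon was accordingly 1.92 ± 0.656 in HPAF-II libraries (SD, n = 3). SREBF2 was higher, with 165 ± 16.6 rescaled counts against 72.0 ± 2.87, and SCAP lower, with 18.0 ± 4.89 against 42.4 ± 2.0 (SD, n = 3 each).

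Genes of handling and efflux were split, some higher and some lower in HPAF-II cells. ABCA1 had 0.357, 0.175 and 0.542 rescaled counts in HPAF-II and 5.24, 7.25 and 5.68 in PANC-1 libraries, a log2 ratio of -4.04. SOAT1 had 8.71 ± 1.11 against 25.0 ± 0.872 (SD, n = 3 each), a log2 ratio of -1.52. NPC1, NPC2 and LPIN1 were lower in every HPAF-II library by less than 2-fold, at log2 ratios of -0.78, -0.95 and -0.91, while STARD4 and TMEM97 were higher, at 0.78 and 0.18. NPC1L1 had 3.45, 3.61 and 3.60 rescaled counts in HPAF-II and 0.189, 0.0861 and 0.0612 in PANC-1 libraries, the highest log2 ratio of the 32 genes at 4.87 but a low level in both lines. ABCG1 was higher in HPAF-II libraries (1.18 ± 0.496 against 0.424 ± 0.117, SD, n = 3 each), also at a low level, and MYLIP overlapped between the lines at 7.05 ± 0.816 and 7.05 ± 1.33.

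**Figure D5:**
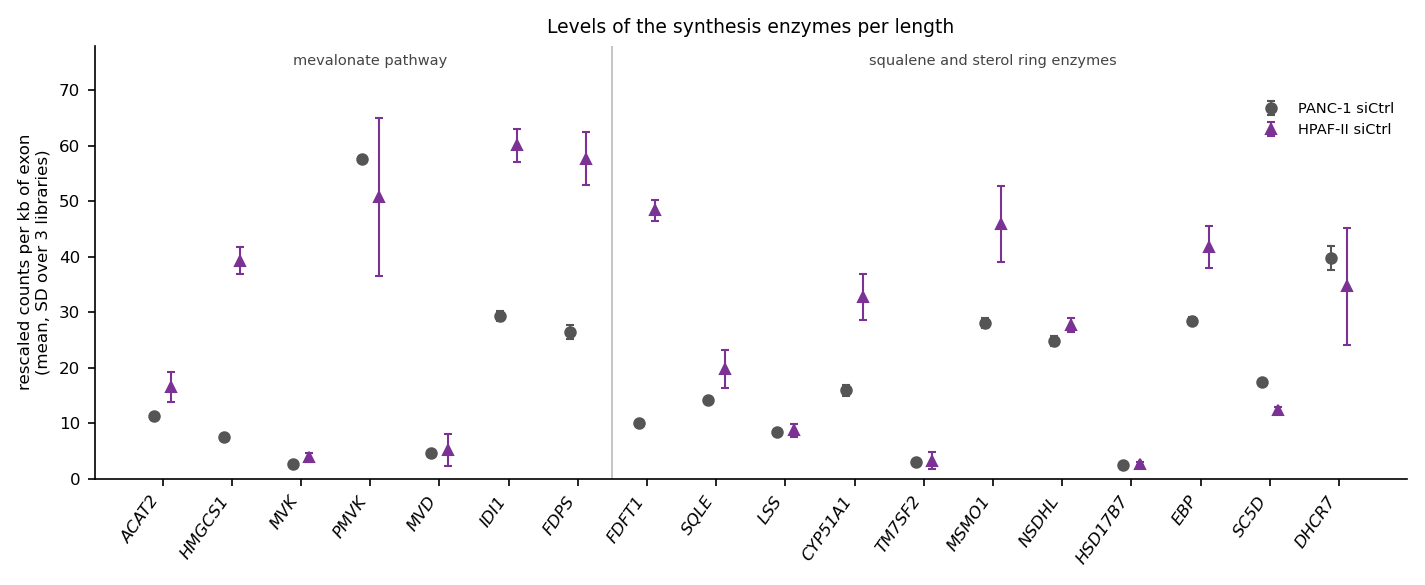
Rescaled counts per kilobase of exon (y axis, from 0; mean and SD over 3 libraries) of the 18 enzymes of synthesis in pathway order (x axis) in PANC-1 siCtrl (circles) and HPAF-II siCtrl cells (triangles). PANC-1 cells have their highest levels for PMVK and DHCR7, and HPAF-II cells have theirs for IDI1, FDPS, PMVK and FDFT1, while MVK, TM7SF2 and HSD17B7 are low in both.

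Levels of different genes were compared only per length, with exon lengths from GENCODE for all 32 genes. These lengths merge the exons of all annotated transcripts of a gene, so the order of the genes depends on the annotation. In PANC-1 siCtrl libraries the enzymes ran from 2.45 ± 0.167 rescaled counts per kilobase for HSD17B7 to 57.5 ± 0.519 for PMVK, and in HPAF-II libraries from 2.74 ± 0.240 for HSD17B7 to 60.0 ± 2.95 for IDI1 (SD, n = 3 each). PMVK was followed in PANC-1 libraries by DHCR7 at 39.7 ± 2.12 and then by IDI1, EBP and MSMO1 at 29.3 ± 0.957, 28.4 ± 0.739 and 28.0 ± 0.878, neighbours that lay within their spread. In HPAF-II libraries IDI1, FDPS (57.7 ± 4.84), PMVK (50.7 ± 14.3) and FDFT1 (48.3 ± 1.90) led, and IDI1 and FDPS, and PMVK and FDFT1, did not differ beyond their spread. MVK, TM7SF2 and HSD17B7 had the lowest levels of the enzymes in both lines, and HMGCS1 had 7.51 ± 0.221 in PANC-1 and 39.3 ± 2.41 in HPAF-II libraries.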

How the data were processed

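Per the labels and the methods, the authors sequenced polyA RNA of PANC-1 and HPAF-II cells in paired-end format, aligned reads to hg38 with STAR 2.7.5a, and counted FAST DB genes. SAMtools, Picard and FastQC are also named in the submitters' processing notes, and featureCounts is listed among the study's software without stating for which libraries it was used. The handling of strand is not given in the sources used here. The deposited values are a signal, namely counts per gene scaled by the authors with DESeq2 size factors, computed over the 9 PANC-1 and the 3 HPAF-II libraries separately. Every value was a whole multiple of a step (within 0.01), but a step need not be a fragment, so no test on counts was run and precision rests on the replicates.

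Groups were taken from the sample labels. For PANC-1 cells a single linear model over 9 libraries was fitted to log2(normalized count + 1) of the 22544 genes whose mean reached 10, by lmFit, contrasts.fit and eBayes of limma 3.58.1 (R 4.3.3), with its mean-variance trend. Two-sided p-values were adjusted over all genes tested (Benjamini-Hochberg, threshold 0.05). On this scale the fold changes of low genes come out too small. The fit was tested on simulated data for siQKI against siCtrl. It called 64 of 100 genes changed by 1 on the log2 scale and 43 of 100 changed by 0.5. False calls numbered 5 among the 22544 genes. A gene that was not called may thus still have changed. The replicates are labelled biological, and p-values measure the spread between them. The lines were described on rescaled counts, as log2 ratios of group means with a pseudocount of 0.01, for 24673 genes whose mean normalized count reached 10 in either line. Lengths are exons of GENCODE, merged over all annotated transcripts of a gene. Summaries used Python 3.11.15 (numpy 2.4.6, pandas 2.3.3, scipy 1.17.1), and figures matplotlib 3.10.9.

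The 32 genes and the other lists were chosen with earlier results of these data known. Any of the 32 could be named. Values per library are given for called members with the largest changes, and of the other lists up to 6 called genes per contrast, those with the largest log2 fold change and a mean of at least 50. Alternatives were pseudocounts of 0.1 and 10, no filter or one at 50, scaling to equal upper quartiles or equal totals, fits restricted to the pair of groups, a replicate block, no trend, and each library left out in turn. Some enzymes and receptors of the pathway are not reported here.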

Additional observations from a re-analysis of the deposited data

How the results depend on the processing

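Each PANC-1 comparison was repeated under 18 alternatives and that of the lines under 9. No call of the 32 genes changed direction, and calls were kept in all alternatives for 7 of 12 genes with siQKI, 12 of 14 with siRBFOX2 and 3 of 6 in the direct contrast. Values called neither way that changed sign were not counted as reversed, and there were 65 of them. Without the mean-variance trend, which weighs low genes otherwise, siQKI called 5 members higher, siRBFOX2 called 5 other pathway genes higher and 4 lower, and the direct contrast called 2 members higher and 6 other pathway genes lower. A fit of only siQKI and siCtrl called 5 members lower. With the deposited values of both lines, without rescaling, 5 members were at least 2-fold higher and 6 lower in HPAF-II cells. The cause of these differences was not tested. With a library left out, siQKI called 5 to 9 members higher and 2 to 5 lower, and siRBFOX2 called 8 to 10 higher and 4 to 6 lower, with 8 to 12 other pathway genes higher and 6 to 11 lower. With siQKI, 10 to 13 other pathway genes were higher and 11 to 14 lower. The direct contrast called 2 to 5 members higher and 2 to 3 lower, and 3 to 6 other pathway genes higher and 6 to 11 lower. In HPAF-II cells 7 to 9 members were at least 2-fold higher and 3 to 4 lower. The lowest siQKI count came without siCtrl replicate 3 or siQKI replicate 2, and 6 other pathway genes were lower with siRBFOX2 without its replicate 1. In the direct contrast 3 other pathway genes were higher without siQKI replicate 3, and 6 were lower without siQKI replicate 1. Leaving out a library also removes a degree of freedom. Rescaling by the upper quartile or the total shifted the median of all genes by less than 0.1 on the log2 scale. The same replicate numbers occur in all groups, but same-numbered libraries did not deviate together over all genes tested (r from -0.0325 to 0.0235 over 9 pairs). A shared effect on a small set of genes could go unseen in such a correlation. The main fit used no pairing. With a replicate block, siQKI called 7 members higher and 4 lower, siRBFOX2 9 and 6, and the direct contrast 4 and 2. Depth in fragments is not known, and NPC1L1 and ABCG1 are the members whose counts were too low to bound a change within 1.5-fold.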
